A study of Mus musculus with 9 samples.

Results

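Messenger RNA of 33 genes of cholesterol metabolism was followed in mouse bone marrow-derived dendritic cells that had received tumor DNA in the cytosol. The genes encode the enzymes of cholesterol synthesis, the proteins that switch them on and off, the proteins that take up, move, store and export cholesterol, and the enzyme that makes an oxysterol. A gene was measured through Affymetrix probe sets that carry its symbol, and no other, in the platform annotation. Of the 33 genes, 30 had such a probe set, and all 30 passed the filter on low signal, among 12586 genes that were tested and 18194 genes named on the array. Acat2, Nr1h2 and Soat1 were not analysed here.

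Cells were grown from 129/SvEv bone marrow for 9 to 12 days with GM-CSF, per the labels' protocols. There were 3 groups of 3 arrays: wild-type cells without stimulation ("WT media"), wild-type cells given tumor-derived DNA with the lipid reagent Lipofectamine for 7 h ("WT tumor DNA"), and STING knockout cells given the same DNA ("STING tumor DNA"). STING, an adaptor protein, passes on the detection of cytosolic DNA. Neither unstimulated knockout cells nor cells that received only the reagent were analysed here, so in wild-type cells the effect of the DNA cannot be told apart from that of the reagent, and the knockout's own baseline was not measured. Whether the arrays of a group stem from different mice or cultures is not in the labels, so the p-values reflect the scatter among these samples alone, and that scatter may be technical.

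Cells make cholesterol from acetyl-CoA through mevalonate, isoprenoid units, squalene and lanosterol. When sterol in the endoplasmic reticulum is low, the escort protein SCAP carries the SREBP transcription factors to the Golgi, where proteases release their active part, and the genes of synthesis and uptake are transcribed. When sterol is plentiful, INSIG proteins hold SCAP back, and oxysterols activate LXR, which induces cholesterol export. In macrophages and dendritic cells, type I interferon is known to induce Ch25h, whose product, an oxysterol, blocks SREBP processing.

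The arrays were alike in gross quality, with median signals of 53.9 to 71.2 and Gapdh 3′/5′ ratios of 0.800 to 0.899. Sting1 signal was 1524, 1081 and 646 in WT media, 2258, 1061 and 1158 in WT tumor DNA and 246, 336 and 327 in STING tumor DNA, so the knockout arrays were the lowest, although the labels do not place the knockout's alteration relative to the probes. The signal of the BioB-3 hybridization control ranged from 306.9 to 431 for arrays with the number 1 and from 87.3 to 157 for those with number 2 or 3, with 1 array of each group under each number. The medians of the synthesis enzymes within each number are therefore given in each comparison. Of the dendritic cell markers, Itgax read 4108 to 6174, Cd74 16325 to 23790 and H2-Ab1 10798 to 23519 on the 9 arrays, whereas Flt3 read 5.74 to 55.1, near the floor. The summed signal of 7 macrophage markers was 56210 to 74624 in WT media, 77913 to 93511 in WT tumor DNA and 53569 to 67982 in STING tumor DNA, and that of 5 plasmacytoid markers was 5272 to 7859, 18942 to 24598 and 3108 to 6776. Both sums were higher in WT tumor DNA without overlap, and 2 markers of each list were called higher against media, where 9.94% of all genes tested were. Without Fcgr1 the macrophage sums of WT tumor DNA (64269 to 76802) and WT media (54584 to 69467) overlapped, whereas without Bst2 the plasmacytoid sums did not (3901 to 5614 against 1557 to 2426). What remained was mostly Tcf4, at 2278, 1325 and 1751 in WT media and 5403, 3526 and 3766 in WT tumor DNA. Siglech went the other way on average, with overlap, at 58.7, 22.4 and 97.5 against 10.4, 52.1 and 28.1. It was the 1 of 4 plasmacytoid markers past the filter that was below 0, and Ccr9 did not pass the filter. The summed signal of 6 mast cell and basophil markers (371 to 1193, 1313 to 3488 and 258 to 306) and of 5 lymphocyte markers (147 to 196, 262 to 337 and 109 to 185) was also highest in WT tumor DNA without overlap, at low levels, with 1 marker of each called higher. Without Hdc the other 5 mast cell and basophil markers summed to 510 to 1438 in WT tumor DNA and 350 to 1069 in WT media, and without Cd247 the other 4 lymphocyte markers to 87 to 220 and 94 to 153, so both overlapped. In the knockout against wild type under DNA, 4 of 7 macrophage, 4 of 6 mast cell and basophil and 2 of 4 plasmacytoid markers past the filter were called lower. So were 1 of 2 lymphocyte and 1 of 7 neutrophil markers, where 9.73% of all genes tested were called lower. All 7 neutrophil markers were below 0, with a median of -1.08. The part of these markers in the results below was not tested. The 8 dendritic markers summed to 46244 to 52247, 45933 to 59697 and 36246 to 48518, with overlap. Single markers moved both ways. Of the 7 past the filter, 1 was called lower and 1 higher with DNA, and 1 was called higher in the knockout. Those calls covered 23.6%, 9.94% and 21.8% of all genes tested. Batf3 read 375, 457 and 302 in WT media, 164, 204 and 114 in WT tumor DNA and 444, 326 and 347 in STING tumor DNA. Ccr7 read 2189, 2184 and 1181, then 6603, 2847 and 3705, then 2362, 2347 and 3161. The summed signal of 7 neutrophil markers overlapped between the groups, at 17130 to 71159, 24891 to 91228 and 34994 to 41801, and limma called 0 of these 7 between WT tumor DNA and WT media, with 0 at an unadjusted p under 0.05. In these bulk samples, fewer cells of a type and less RNA per cell cannot be told apart.

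Wild-type cells given tumor DNA had lower signals of cholesterol synthesis enzymes than wild-type cells in media, with 9 of the 17 measured past the test. Of the 30 genes, 13 fell and 3 rose, and 14 did not pass the test, calls being made at a limma adjusted p under 0.05, with the Benjamini-Hochberg adjustment over all 12586 genes. Among all genes tested, 33.6% were called, 23.6% lower and 9.94% higher. The genes that fell were 9 of 17 synthesis enzymes (52.9%), both Srebf2 and Scap of the SREBP machinery, and Stard4 and Npc1 of sterol transport. The genes that rose were Abcg1, Npc2 and Ch25h. The median log2 difference was -0.85 over the 30 genes and -0.95 over the 17 synthesis enzymes, against -0.20 over all genes. All 17 synthesis enzymes had a difference below 0, from -2.14 to -0.35, and in 14 of them the arrays of the groups did not overlap, as they did not in 22 of the 30 genes. Of all genes, 46.4% were so separated, 31.4% with WT tumor DNA lower and 15% with it higher.

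**Figure D1:**
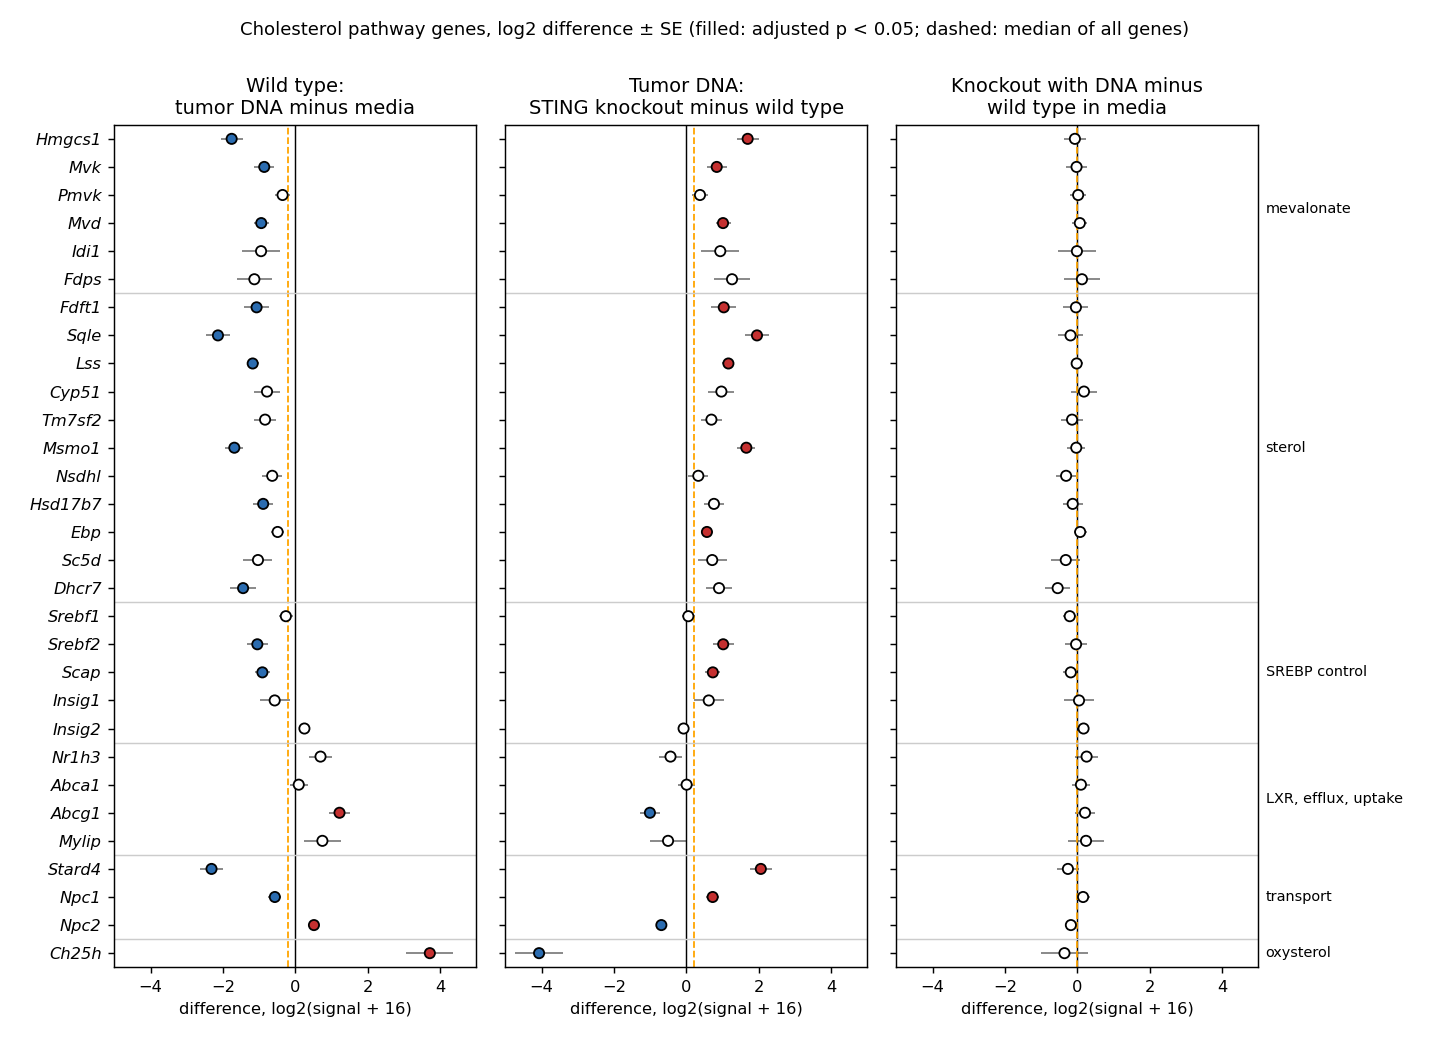
Log2 difference of each of the 30 genes in 3 comparisons, WT tumor DNA minus WT media, STING tumor DNA minus WT tumor DNA and STING tumor DNA minus WT media, grouped by role. Points are differences of log2(signal + 16), bars are the standard error, blue is called lower, red is called higher, open points are not called, and the dashed orange line is the median of all genes tested. The synthesis enzymes lie to the left of 0 in the first comparison, to the right in the second, and on both sides of 0 in the third.

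The differences of the synthesis enzymes had the same sign under each array number. Within numbers 1, 2 and 3 the median difference of the 17 enzymes was -1.29, -1.03 and -0.72, against -0.30, -0.16 and -0.16 over all genes, and all 17 were lower in WT tumor DNA in every number. With the array number as a block in the fit, 20 of the 30 genes were called lower, 15 of the 17 enzymes among them, and 5 were called higher. The share of all genes called with the block is not given here. The shares above come from the fit without it and are no background for these counts. The number of calls also depended on scaling. After median centring of each array, 7 of the 30 were called lower and 4 higher, while over all genes 1451 were called lower and 2038 higher in place of 2973 and 1251, and the median of all genes moved to 0.11. The median of the 17 enzymes was then -0.65, and all 17 were still below 0. With the arrays numbered 2 left out, or those numbered 3, 6 genes were called lower and 1 higher.

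In STING knockout cells given the same DNA, 12 of the 30 genes were called higher than in wild-type cells given DNA, 3 were called lower, and 15 did not pass the test. Among all genes, 31.5% were called, 21.8% higher and 9.73% lower. The median log2 difference of the 17 synthesis enzymes was 0.94, from 0.33 to 1.95, against 0.20 over all genes, and 8 of the 17 were called higher and 0 lower. The arrays did not overlap in 11 of the 17 and in 18 of the 30 genes, where 46% of all genes were so separated, 31.3% with the knockout higher and 14.7% with it lower. Both comparisons use the same WT tumor DNA arrays, so their values are given side by side and the opposite signs are not independent observations. Within numbers 1, 2 and 3 the median difference of the enzymes was 1.35, 0.81 and 0.61, against 0.25, 0.19 and 0.16 over all genes, and 16 of the 17 were higher in the knockout in every number, the exception being Nsdhl, with -0.21 in number 2. After median centring 6 genes were called higher and 3 lower, while over all genes 1456 were called higher and 1805 lower in place of 2746 and 1224. With knockout array 1 or 3 left out 7 were called higher, with number 2 left out 6, and with number 3 left out 7, with 1 lower. Without the arrays numbered 1 the median of the 17 enzymes was 0.55. With the array number as a block 18 genes were called higher and 4 lower, again without a share of all genes for that fit.

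STING knockout cells given DNA were also set against wild-type cells in media, a comparison in which genotype and DNA differ at once. None of the 30 genes was called by limma, and 0 had an unadjusted p under 0.05, where 0.429% of all genes were called, 0.262% lower and 0.167% higher. The block fit also called 0 of the 30. The median log2 difference of the 17 synthesis enzymes was -0.03, from -0.54 to 0.18, and that of all genes was -0.01. This median moved both ways as arrays were left out. Without knockout array 1 it was -0.36, with all 17 enzymes below 0. Without the arrays numbered 1 it was -0.23, with 16 of 17 below 0, against 0.01 over all genes in both cases. Without WT media array 1 or knockout array 2 or 3 it was 0.06, 0.07 and 0.05. Then 7, 7 and 5 of the 17 were below 0. Without WT media array 2 or 3 it was -0.12 and -0.10, and without number 2 or 3 it was 0.07 and 0.00097. Within numbers 1, 2 and 3 it was 0.22, -0.35 and -0.17, against -0.05, 0.01 and -0.00088 over all genes. In the fit without the block, the 95% confidence intervals of the single enzymes reached from -1.33 to 1.23, so that fit does not exclude changes of up to about that size in single enzymes. With the block the standard errors were, for example, 0.19 for Fdps, 0.25 for Idi1 and 0.34 for Dhcr7.

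Among the enzymes of the mevalonate steps, 3 of 6 fell with DNA in wild-type cells, Hmgcs1, Mvd and Mvk, and the same 3 were called higher in the knockout. Hmgcs1 encodes the synthase that condenses acetyl-CoA and acetoacetyl-CoA at the entry of the pathway. Its signal was 6257, 4204 and 4379 in WT media, 1629, 1204 and 1472 in WT tumor DNA and 7799, 3289 and 3889 in STING tumor DNA. Each WT tumor DNA array was below every other array. Hmgcs1 fell by 1.76 ± 0.30 on the log2 scale (SE, n = 3 per group, limma adjusted p = 0.0024), a 3.39-fold lower level, and was 1.69 ± 0.30 higher in the knockout (adjusted p = 0.0025). Its difference between STING tumor DNA and WT media was -0.07, with a 95% interval of -0.74 to 0.60. The other 3 Hmgcs1 probe sets that passed the filter gave -1.59, -1.84 and -1.01 for DNA against media, the last not called (limma adjusted p = 0.057).

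Mvd, the decarboxylase that makes isopentenyl diphosphate, had signals of 756, 695 and 630.0 in WT media, 293, 368 and 403 in WT tumor DNA and 926, 719.5 and 573 in STING tumor DNA. The WT tumor DNA arrays were again the lowest. Mvd fell by 0.94 ± 0.21 (adjusted p = 0.0074) and was 1.01 ± 0.21 higher in the knockout (adjusted p = 0.0052). With array number 2 left out, its adjusted p was 0.069 and 0.059. Mvk, mevalonate kinase, had signals of 261, 339 and 238 in WT media, 90.9, 208 and 159 in WT tumor DNA and 318, 252 and 251 in STING tumor DNA. Its groups did not overlap in either comparison, and it fell by 0.86 ± 0.28 (adjusted p = 0.038) and was 0.84 ± 0.28 higher in the knockout (adjusted p = 0.044). Both Mvk calls were lost under quantile normalization and median centring, and when any 1 array but WT tumor DNA array 2 or, for the call with DNA, knockout array 1 was left out (adjusted p of up to 0.12 for DNA and 0.12 for the knockout). They were also lost without any 1 number, at up to 0.14 for DNA and 0.25 for the knockout.

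The other mevalonate-step enzymes did not pass the test in either comparison. The differences with DNA were -0.35 for Pmvk, the kinase after Mvk, -0.95 for Idi1, the isomerase of the isoprenoid unit, and -1.13 for Fdps, the synthase of farnesyl diphosphate. Fdps and Idi1 spread widely within groups, and in each group the array numbered 1 was the highest, with Fdps at 2388, 1401 and 1356 in WT media, 1488, 537 and 515 in WT tumor DNA and 3550.4, 1092 and 1523 in STING tumor DNA. With the number as a block, Fdps was called lower with DNA (adjusted p = 0.0014) and higher in the knockout (0.00079), and Idi1 likewise (0.013 and 0.015).

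Of the 11 enzymes from squalene to cholesterol, 6 fell with DNA and 5 were called higher in the knockout. In all 11 the WT tumor DNA arrays lay below the WT media arrays, where 31.4% of all genes tested had such a separation in that direction. Sqle, the epoxidase of squalene and a rate-limiting enzyme of the pathway, showed the greatest fall among the enzymes. Its signal was 1361, 1202 and 1393 in WT media, 212, 221 and 495 in WT tumor DNA and 1732, 945 and 932 in STING tumor DNA. All WT tumor DNA arrays were below the other 6. Sqle fell by 2.14 ± 0.33 on the log2 scale, 4.41-fold (adjusted p = 0.0017), and was 1.95 ± 0.33 higher in the knockout (adjusted p = 0.0021). Between STING tumor DNA and WT media its difference was -0.19, with a 95% interval of -0.93 to 0.56.

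Lss, the cyclase that forms lanosterol, had the least spread, with 429, 348 and 395 in WT media, 159, 162 and 168 in WT tumor DNA and 418, 391 and 346 in STING tumor DNA. Its WT tumor DNA arrays lay close together and far below the rest. Lss fell by 1.18 ± 0.17 (adjusted p = 0.0011) and was 1.16 ± 0.17 higher in the knockout (adjusted p = 0.00094), and its difference from WT media in the knockout was -0.02, with a 95% interval of -0.39 to 0.35. Msmo1, an oxidase that takes part in the removal of methyl groups from the sterol ring, had 2237, 1719 and 1943 in WT media, 435, 638 and 761 in WT tumor DNA and 2606, 1553 and 1727 in STING tumor DNA. The groups with and without STING under DNA did not overlap. Msmo1 fell by 1.69 ± 0.25 (adjusted p = 0.0013) and was 1.66 ± 0.25 higher in the knockout (adjusted p = 0.0012).

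Dhcr7, the reductase of the last step of one branch, fell by 1.45 ± 0.35 (adjusted p = 0.011). Its signal was 549, 359 and 279.8 in WT media, 83.2, 167 and 155 in WT tumor DNA and 397, 203 and 208 in STING tumor DNA. The knockout arrays lay above the wild-type DNA arrays, yet the difference of 0.90 was not called (adjusted p = 0.077), and the difference from WT media of -0.54 was the one farthest from 0 among the enzymes in that comparison. Fdft1, squalene synthase, fell by 1.07 ± 0.35 (adjusted p = 0.038) and was 1.03 ± 0.35 higher in the knockout (0.046). Hsd17b7, a ketoreductase of the demethylation complex, fell by 0.89 ± 0.28 (0.034), with 0.76 in the knockout that was called only with the number as a block (adjusted p = 0.065 without it and 0.014 with it). The other kept Hsd17b7 probe sets gave -0.55 (limma adjusted p = 0.26), -0.58 (0.15) and -0.08 (0.90) with DNA and were not called. The Fdft1 and Hsd17b7 calls were lost under quantile normalization and median centring. Single arrays also decided them: without WT tumor DNA array 2 the adjusted p with DNA was 0.107 for Fdft1 and 0.0817 for Hsd17b7, and without WT media array 3 it was 0.0619 and 0.115. Other single arrays ended the Fdft1 call with DNA (WT media 1 and 2, WT tumor DNA 3 and knockout 3, at up to 0.119) and in the knockout (knockout 1 and 3, WT tumor DNA 2 and 3, WT media 2 and 3, at up to 0.125), and that of Hsd17b7 (WT tumor DNA 1 and knockout 3, at up to 0.112). The Dhcr7 call was lost without number 2 (0.0513) or 3 (0.0544). So were the Fdft1 calls, at up to 0.190 with DNA and 0.198 in the knockout. The Hsd17b7 call was lost without any 1 number (up to 0.119).

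The remaining sterol enzymes were not called with DNA. Their differences were -0.78 for Cyp51, the lanosterol demethylase, -0.84 for Tm7sf2, a sterol reductase, -0.64 for Nsdhl, a dehydrogenase of the demethylation complex, -0.49 for Ebp, the isomerase that moves the ring double bond, and -1.03 for Sc5d, the desaturase. Ebp was called higher in the knockout, by 0.57 ± 0.18 (adjusted p = 0.034), a call lost after median centring (0.27) and without knockout array 1 or 3 or WT tumor DNA array 3 (up to 0.108). That call was also lost without any 1 number (up to 0.220). With the number as a block, Cyp51, Tm7sf2, Ebp and Sc5d were called lower with DNA, at adjusted p = 0.035, 0.046, 0.011 and 0.0022, and Cyp51 and Sc5d were called higher in the knockout (0.015 and 0.013, against 0.065 and 0.21 without the block). A further Cyp51 probe set gave -1.43 (adjusted p = 0.0082) and a further Sc5d probe set -2.41 (adjusted p = 0.0034), while the remaining kept probe set of each gave -0.71 (0.28) and -0.08 (0.88) and were not called, so these genes read differently on different probe sets.

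**Figure D2:**
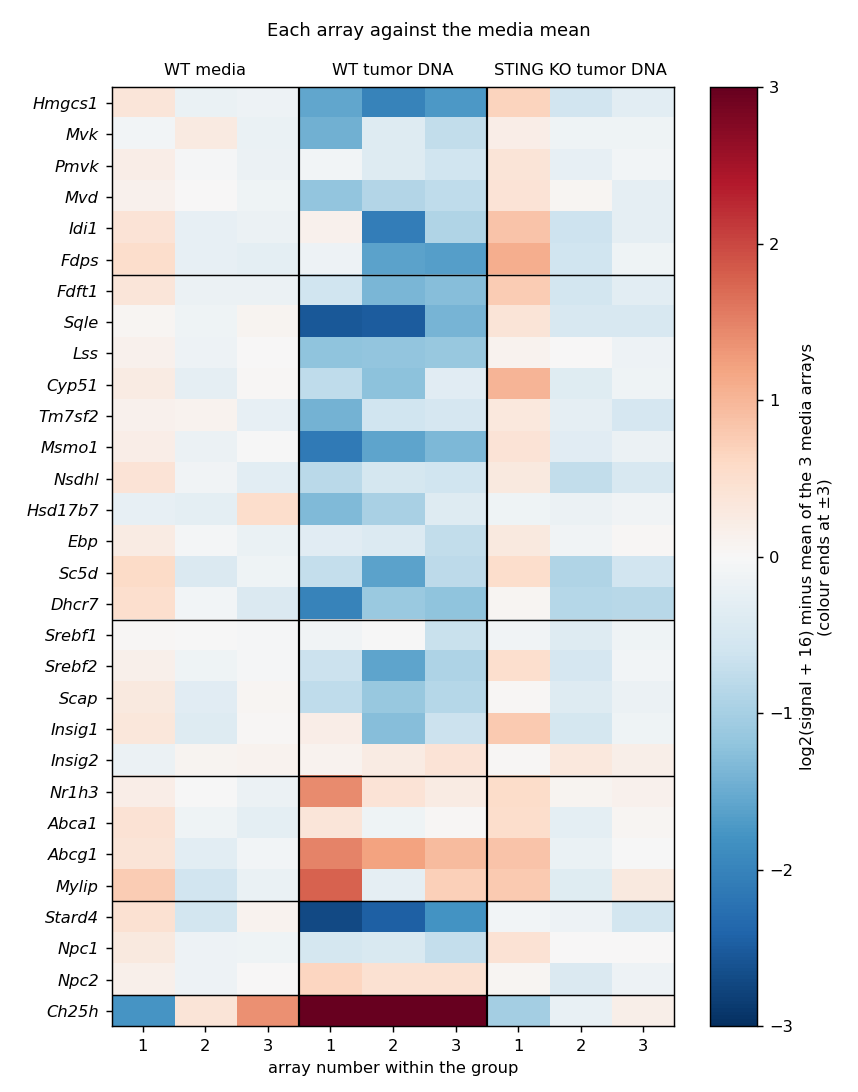
Log2(signal + 16) of the 30 genes on each of the 9 arrays, as the difference from the gene's mean over the WT media arrays, with the genes grouped by role. Blue is below and red above that mean, and the colour ends at ±3, which Ch25h passes in WT tumor DNA. The WT tumor DNA columns are blue for the synthesis enzymes, and the arrays numbered 1 are redder than 2 and 3 in media and in the knockout for several of them.

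SREBP2 is the main driver of cholesterol synthesis genes, and together with the factor NF-Y, which binds CCAAT, and Sp1, which binds GC-rich boxes, it acts at their promoters. The 250 bases before the transcription start in RefSeq (GRCm38.p6) were searched on both strands for TCACNCCAC, a core sterol regulatory element, for CCAAT and for GGGCGG, whose matches did not overlap each other. Of the 33 genes, 27 had an entry in the promoter table. CCAAT was found in 21 of 27, and in 14 of the 15 synthesis enzymes with an entry, against 37.5% of all 27025 genes in the table. GGGCGG was found in 22 of 27, and likewise in 14 of the 15, against 35.4% of all genes. The 15 include Acat2, which was not measured, and lack Fdps, Sqle and Fdft1. The 27025 genes outnumber the 12586 tested, so they include genes not tested here and are not a like set. No share over the tested genes was computed. The element TCACNCCAC was found in 1 of 27, Hmgcs1, against 1.22% of all genes, and GAAANNGAAA, the core to which interferon-activated factors bind, in 1 of 27, Ebp, against 3.46%. A match is only a run of letters, and no binding was measured. The windows of Hmgcs1 (chr13:119690101-119690350, plus strand), Lss (chr10:76531355-76531604, plus strand) and Msmo1 (chr8:64733579-64733828, minus strand) are shown because these enzymes fell together. The window of Srebf2 (chr15:82147019-82147268, plus strand) is shown as that of the regulator that fell with them, and that of Ch25h (chr19:34475149-34475398, minus strand) as that of the gene that rose most. They run 5′ to 3′ and end at the base before the start. Capitals mark CCAAT, or ATTGG where it lies on the other strand, and TCACCCCAC in Hmgcs1.
Hmgcs1: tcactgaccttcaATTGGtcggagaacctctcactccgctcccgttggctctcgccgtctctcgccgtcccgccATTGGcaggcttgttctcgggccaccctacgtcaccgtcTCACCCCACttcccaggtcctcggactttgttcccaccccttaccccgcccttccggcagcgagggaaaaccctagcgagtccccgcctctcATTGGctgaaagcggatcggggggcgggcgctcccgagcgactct
Lss: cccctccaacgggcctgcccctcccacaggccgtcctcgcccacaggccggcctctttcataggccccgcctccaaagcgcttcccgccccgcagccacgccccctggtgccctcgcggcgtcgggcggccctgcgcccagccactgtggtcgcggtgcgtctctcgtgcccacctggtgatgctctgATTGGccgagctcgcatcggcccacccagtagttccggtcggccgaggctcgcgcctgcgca
Msmo1: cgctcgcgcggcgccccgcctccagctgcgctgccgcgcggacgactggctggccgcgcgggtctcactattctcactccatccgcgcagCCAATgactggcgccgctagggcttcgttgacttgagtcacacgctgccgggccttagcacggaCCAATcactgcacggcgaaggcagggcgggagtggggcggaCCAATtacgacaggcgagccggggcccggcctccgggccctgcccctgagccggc
Srebf2: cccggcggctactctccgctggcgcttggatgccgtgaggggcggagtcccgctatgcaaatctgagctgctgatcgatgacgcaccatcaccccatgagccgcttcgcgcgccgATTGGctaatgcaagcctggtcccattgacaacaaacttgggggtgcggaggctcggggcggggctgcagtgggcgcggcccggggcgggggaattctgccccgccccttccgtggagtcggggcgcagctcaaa
Ch25h: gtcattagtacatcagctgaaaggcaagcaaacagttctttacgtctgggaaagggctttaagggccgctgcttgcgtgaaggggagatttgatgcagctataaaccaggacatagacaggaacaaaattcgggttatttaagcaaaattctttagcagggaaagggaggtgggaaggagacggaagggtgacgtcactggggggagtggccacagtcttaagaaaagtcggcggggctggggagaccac
The Hmgcs1 window held 3 CCAAT matches and 1 TCACNCCAC, Msmo1 held 3 CCAAT matches, Lss and Srebf2 held 1 each, and Ch25h held 0 of any motif searched.

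Of the 5 genes that control SREBP, Srebf2 and Scap fell with DNA and were called higher in the knockout, whereas Srebf1 and Insig2 were called in neither comparison and Insig1 only with the array number as a block. Srebf2 encodes SREBP2 and had signals of 1069, 866 and 939 in WT media, 601, 309 and 496 in WT tumor DNA and 1353, 663 and 896 in STING tumor DNA. The WT tumor DNA arrays were below all others. Srebf2 fell by 1.05 ± 0.29 (adjusted p = 0.021) and was 1.02 ± 0.29 higher in the knockout (adjusted p = 0.025). Scap, the sterol-sensing escort, had 1089, 695 and 924 in WT media, 519.9, 398 and 483 in WT tumor DNA and 909, 670.3 and 780.1 in STING tumor DNA, again with no overlap. It fell by 0.91 ± 0.21 (adjusted p = 0.0085) and was 0.73 ± 0.21 higher in the knockout (adjusted p = 0.023). The Srebf2 and Scap calls were lost in both comparisons under quantile normalization and median centring, with adjusted p of up to 0.11 for Srebf2 and 0.073 for Scap with DNA. The Srebf2 call with DNA was also lost without WT media array 1 or 3 or WT tumor DNA array 2 (up to 0.0644). Leaving out number 2 (0.0671) or 3 (0.134) ended it as well, and number 3 ended that of Scap (0.103). In the knockout both were lost without knockout array 1 or 3 or WT tumor DNA array 2 (up to 0.0773 for Srebf2 and 0.0753 for Scap). Both were also lost there without number 3 (0.149 and 0.162), and Scap without number 2 (0.0647).

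Srebf1 encodes SREBP1, which drives fatty acid synthesis genes more than cholesterol genes. Its signal was 1742, 1695 and 1651 in WT media, 1569.5, 1672 and 1067 in WT tumor DNA and 1566, 1294 and 1546 in STING tumor DNA. The differences were -0.26 with DNA and 0.05 in the knockout, neither called, and it was the only one of the 30 genes whose STING tumor DNA and WT media arrays did not overlap (difference -0.21, adjusted p = 0.91), against 13.8% of all genes, 7.88% with the knockout lower and 5.93% with it higher. Insig1, itself an SREBP target that retains SCAP, had 2092, 1259 and 1668 in WT media, 1887, 669 and 1040.2 in WT tumor DNA and 2857, 1125 and 1499 in STING tumor DNA. Its groups overlapped, and its difference of -0.57 ± 0.41 was not called, although it was with the number as a block (adjusted p = 0.018). In the knockout its difference of 0.62 had an adjusted p of 0.29 without the block and 0.014 with it. Insig2 had 805, 959.6 and 973 in WT media, 971, 1077 and 1215 in WT tumor DNA and 925, 1140.2 and 1021 in STING tumor DNA. Its difference with DNA was 0.25 and not called.

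**Figure D3:**
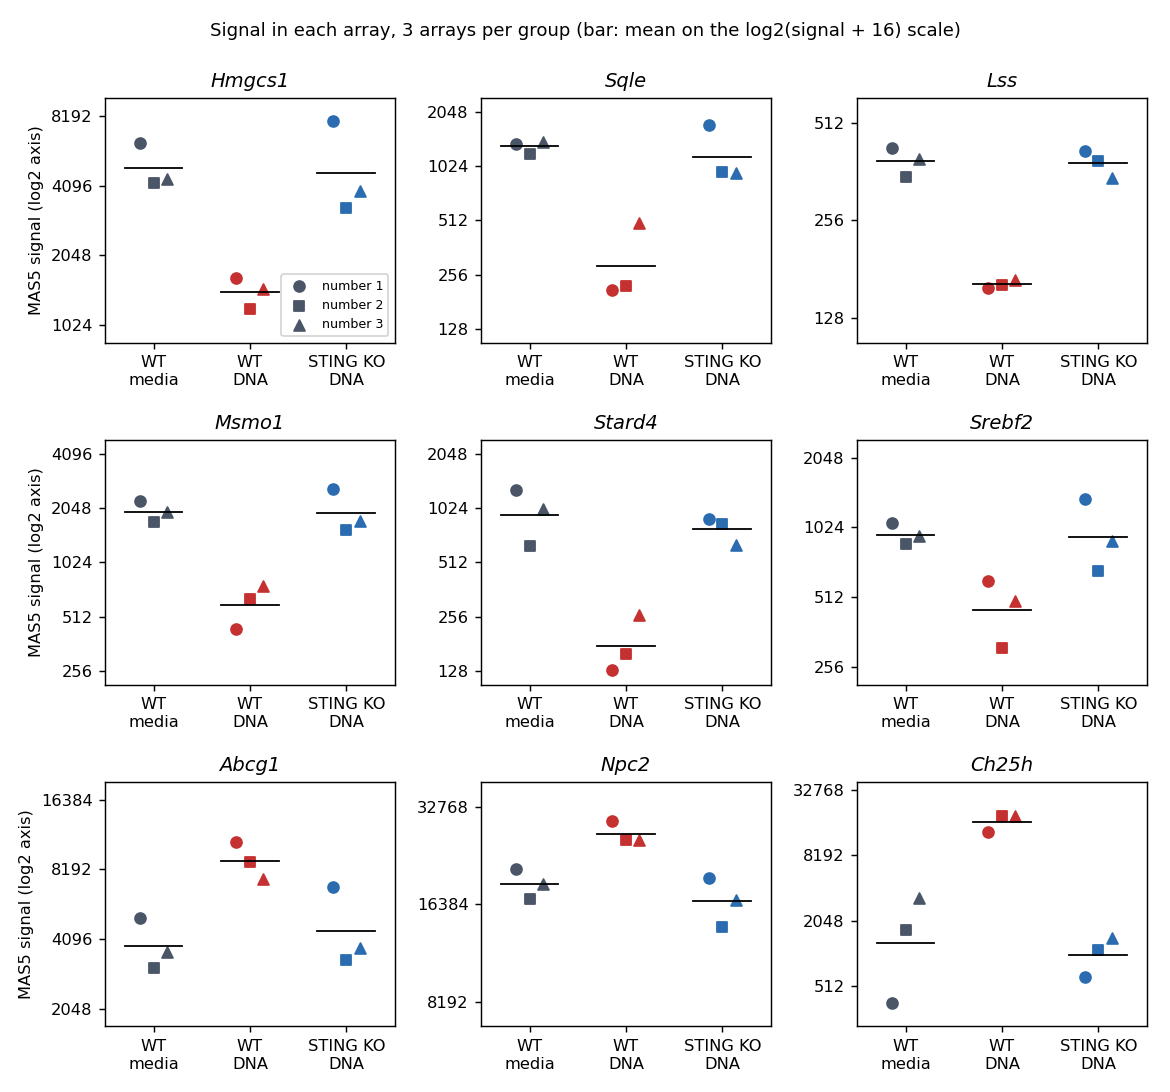
MAS5 signal, on a log2 axis, of 9 genes on each array of WT media, WT tumor DNA and STING tumor DNA. Each point is an array, its shape the array number, and the bar is the group mean on the log2(signal + 16) scale. The WT tumor DNA points of the synthesis and SREBP genes lie below the others, and those of Abcg1, Npc2 and Ch25h lie above.

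Among the 4 measured genes of LXR, efflux and uptake control, Abcg1 alone was called. Abcg1 encodes a transporter that exports cholesterol to high-density lipoprotein. Its signal was 5036, 3065 and 3626 in WT media, 10799.8, 8836 and 7438 in WT tumor DNA and 6899, 3341 and 3766 in STING tumor DNA. All WT tumor DNA arrays were above the other 6. Abcg1 rose by 1.22 ± 0.28 (adjusted p = 0.0093), 2.33-fold, and was lower in the knockout, by -1.01 ± 0.28 (adjusted p = 0.022). A second Abcg1 probe set gave 0.49 and was not called (adjusted p = 0.36), and the mean over both was not called (0.069). The call with DNA was also lost without number 2 (0.0676) or 3 (0.0747), and that in the knockout under quantile normalization (0.0578) and without WT tumor DNA array 1 or knockout array 2 or 3 (up to 0.0814). Leaving out number 2 or 3 ended the knockout call as well (0.139 and 0.137).

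Abca1, which exports cholesterol to lipid-poor apolipoproteins and is a textbook LXR target beside Abcg1, read 13165, 8892 and 8033 in WT media, 12643, 8974 and 10033 in WT tumor DNA and 14206, 7968 and 10185 in STING tumor DNA. The 3 groups overlapped throughout. Its difference was 0.09, with a 95% interval of -0.45 to 0.63, with DNA, and 0.01, with an interval of -0.54 to 0.55, in the knockout. Both intervals are from the fit without the block, and with the block the standard error was 0.12. Nr1h3, which encodes LXR alpha, read 127, 107 and 93.5 in WT media, 317, 149 and 132 in WT tumor DNA and 167, 115 and 119 in STING tumor DNA. The WT tumor DNA arrays were all above the WT media arrays, and the difference of 0.69 was not called (adjusted p = 0.12) without the number as a block (0.033 with it). Mylip, the LXR-induced ubiquitin ligase that marks lipoprotein receptors for degradation, read 3872, 1529.8 and 1991 in WT media, 7830.3, 1902 and 3759 in WT tumor DNA and 3923, 1777 and 2789 in STING tumor DNA. Its groups overlapped, its differences of 0.75 and -0.51 were not called, and both were called with the number as a block (adjusted p = 0.0075 and 0.042).

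The genes of sterol transport split in direction. Stard4, an SREBP2 target that carries cholesterol between membranes in the cytosol, showed the greatest fall of the 30 genes. Its signal was 1294, 634 and 1009.7 in WT media, 129, 159 and 261 in WT tumor DNA and 888, 841 and 639 in STING tumor DNA. The highest WT tumor DNA array was far below the lowest of the other groups. Stard4 fell by 2.32 ± 0.31, 4.98-fold (adjusted p = 0.00082), and was 2.06 ± 0.31 higher in the knockout, 4.16-fold (adjusted p = 0.0011). The other Stard4 probe sets gave -1.60 and -1.77 with DNA.

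Npc1 and Npc2 encode the membrane and the soluble protein that pass cholesterol out of the lysosome, and they moved in opposite directions. Npc1 read 2638, 1936 and 1976 in WT media, 1497, 1564 and 1309 in WT tumor DNA and 2931, 2185 and 2192 in STING tumor DNA. Its WT tumor DNA arrays were the lowest, and Npc1 fell by 0.57 ± 0.18 (adjusted p = 0.034) and was 0.73 ± 0.18 higher in the knockout (adjusted p = 0.012). Npc2 read 21030.1, 17075 and 18955 in WT media, 29530.4, 25816 and 25914 in WT tumor DNA and 19794, 13950.2 and 16955 in STING tumor DNA. Its WT tumor DNA arrays were the highest, and Npc2 rose by 0.51 ± 0.14 (adjusted p = 0.019) and was lower in the knockout, by -0.69 ± 0.14 (adjusted p = 0.0048). The call of Npc1 with DNA was lost under quantile normalization and median centring, and that of Npc2 under quantile normalization and without the variance trend, with no change of direction. Without WT tumor DNA array 1 the adjusted p with DNA was 0.0637 for Npc1 and 0.0678 for Npc2, and it was also above the threshold for Npc1 without WT media array 1 (0.112) or WT tumor DNA array 3 (0.10) and for Npc2 without WT media array 2 (0.0689). The Npc1 call with DNA was lost without any 1 number (up to 0.175), and that of Npc2 without number 2 (0.0589) or 3 (0.130). In the knockout the Npc1 call was lost after median centring (0.10) and without number 2 (0.0547) or 3 (0.108), and that of Npc2 without number 3 (0.072). The other 3 Npc2 probe sets gave 1.16, 0.40 and 0.77 with DNA, the last not called (limma adjusted p = 0.26).

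Ch25h had the largest difference of the 30 genes. It encodes the hydroxylase that makes the oxysterol described above. Its signal was 358, 1674 and 3319 in WT media, 13421, 18796 and 18806 in WT tumor DNA and 614, 1092 and 1424 in STING tumor DNA. The lowest WT tumor DNA array was above the highest array of either other group, and the media arrays spread over a wide range. Ch25h rose by 3.71 ± 0.65 on the log2 scale, 13.1-fold (adjusted p = 0.0028), and was lower in the knockout, by -4.07 ± 0.65, 16.8-fold (adjusted p = 0.0016). Within numbers 1, 2 and 3 the difference with DNA was 5.17, 3.48 and 2.50, and that in the knockout was -4.42, -4.09 and -3.71. Between STING tumor DNA and WT media it was -0.36, with a 95% interval of -1.81 to 1.10. Ch25h, Hmgcs1, Sqle, Lss, Msmo1 and Stard4 were the 6 genes whose calls in both comparisons held under all 20 alternatives.

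Genes next to these in lipid metabolism were counted in the same fit. Of 12 fatty acid synthesis genes, which answer to SREBP1 and SREBP2, 6 were called lower with DNA and 0 higher, with a median of -0.75, and 7 were called higher in the knockout, where 23.6% of all genes were called lower with DNA and 21.8% higher in the knockout. Elovl6, the elongase of palmitate, fell by 2.27 ± 0.30 (adjusted p = 0.00086), Fasn, fatty acid synthase, by 1.87 ± 0.28 (0.0015), and Elovl5, the elongase of polyunsaturated chains, by 1.02 ± 0.16 (0.0017). In the knockout these were 2.11, 2.20 and 1.12 higher, at adjusted p = 0.00097, 0.0006 and 0.0009. No test set this list against the cholesterol enzymes.

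Of 10 measured genes of the isoprenoid branch, which leaves the pathway at farnesyl diphosphate for protein prenylation, dolichol and ubiquinone, 1 was called with DNA, Fnta, the shared alpha subunit of both CAAX prenyltransferases, which fell by 0.48 ± 0.15 (adjusted p = 0.037). The Fnta call was lost when the arrays of any 1 number were left out, with adjusted p of up to 0.21. The median was -0.35, and in the knockout limma called 0 of the 10, with 4 at an unadjusted p under 0.05. Of all genes, 33.6% were called with DNA, 23.6% lower and 9.94% higher, and 31.5% in the knockout. Of 9 genes of SREBP cleavage and of protein degradation at the endoplasmic reticulum, 2 fell and 2 rose with DNA, or 22.2% each way, against 23.6% of all genes lower and 9.94% higher. Mbtps1 and Mbtps2, the proteases that release SREBP in the Golgi, fell by 0.90 ± 0.15 (adjusted p = 0.0021) and 0.64 ± 0.13 (0.0054), and Rnf139, a ubiquitin ligase of the sterol pathway, rose by 0.91 ± 0.23 (0.013). In the knockout their differences were 0.91, 0.52 and -1.10, all called. When the probe sets of a gene were averaged, the calls of Mbtps1 and Rnf139 with DNA were lost (adjusted p = 0.11 and 0.48). The Mbtps2 call was lost after median centring (0.10) and with number 2 or 3 left out (up to 0.093), and that of Rnf139 with number 3 left out (0.16). In the knockout the calls of Mbtps1 (0.073) and Rnf139 (0.48) were likewise lost with averaged probe sets, that of Rnf139 without number 3 (0.076), and that of Mbtps2 after median centring (0.21), without knockout array 1 and without any 1 number (up to 0.16).

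Of 13 genes of sterol handling, 3 fell (23.1%) and 1 rose (7.69%) with DNA, close to the 23.6% and 9.94% of all genes. Stard3, which moves cholesterol at late endosomes, rose by 1.55 ± 0.21 (adjusted p = 0.00092) and was lower in the knockout, by -1.56 ± 0.21 (0.00076). Scarb1, the receptor of high-density lipoprotein, fell by 0.85 ± 0.25 (0.024), and Lrp1, a receptor of lipoprotein remnants, fell by 1.02 ± 0.32 (0.031) and was 1.08 higher in the knockout (0.026). Of 4 further measured LXR targets, limma called 0 in either comparison, with 0 at an unadjusted p under 0.05 with DNA and 1 in the knockout, and the median with DNA was -0.34. Of 4 genes of oxysterol metabolism and sensing, 2 fell with DNA and 0 rose, where 23.6% of all genes were called lower and 9.94% higher. Hsd3b7, which removes the ligand of GPR183 by oxidizing it, fell by 1.005 ± 0.174 (adjusted p = 0.0026), and Gpr183, the receptor that guides cells along oxysterol gradients, fell by 1.26 ± 0.36 (0.023). In the knockout they were 0.80 and 1.21 higher, at adjusted p = 0.0068 and 0.029, where 21.8% of all genes were called higher. Between STING tumor DNA and WT media limma called 0 genes of these 6 lists, with 1, of the isoprenoid branch, at an unadjusted p under 0.05. The calls of Scarb1, Lrp1 and Gpr183 with DNA were lost under quantile normalization and median centring and when single arrays were left out, WT media array 1 among them, with adjusted p of up to 0.13. In the knockout the Gpr183 call was lost under quantile normalization, median centring and averaged probe sets (up to 0.11) and without WT tumor DNA array 1 or 2, knockout array 2 or 3, or number 2 or 3 (up to 0.19). The Hsd3b7 call there was lost after median centring (0.054) and without number 3 (0.059), and that of Lrp1 after median centring (0.061) and without any 1 knockout array or number 2 or 3 (up to 0.11).

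**Figure D4:**
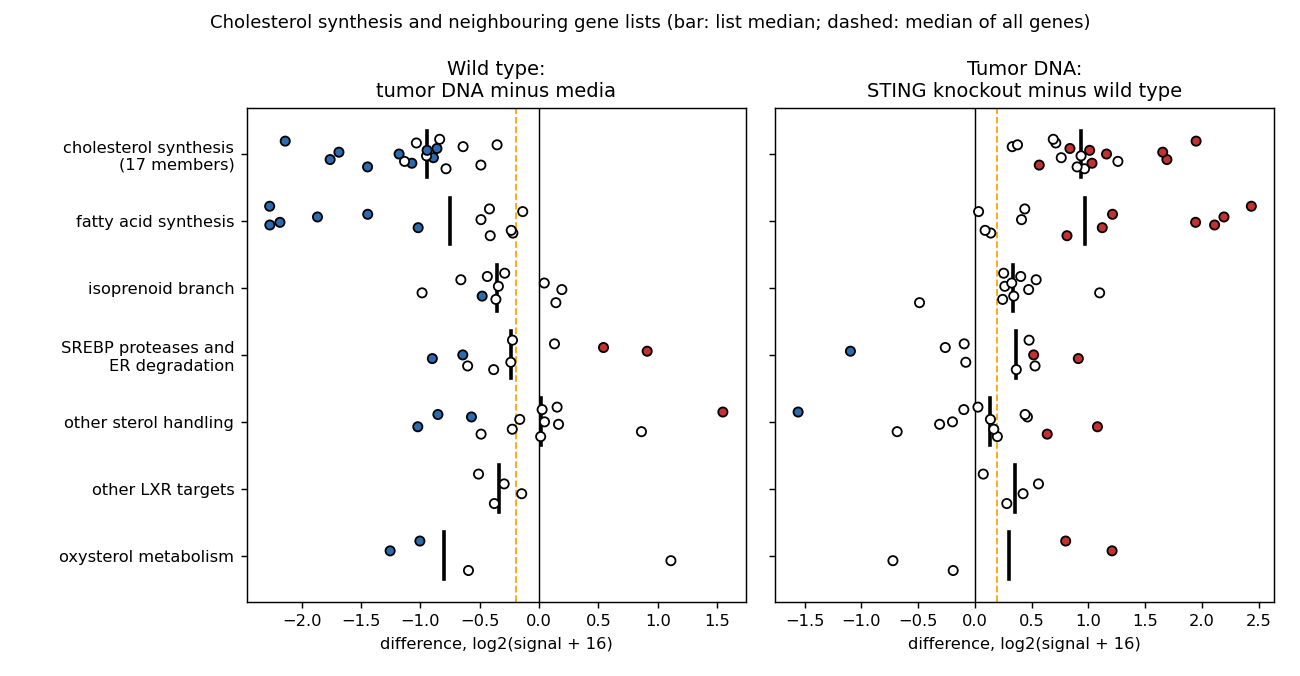
Log2 differences of the 17 cholesterol synthesis enzymes and of the genes of 6 neighbouring lists, for WT tumor DNA minus WT media (left) and STING tumor DNA minus WT tumor DNA (right). Each point is a gene, blue for called lower, red for called higher and open for not called, the black bar is the list median, and the dashed orange line is the median of all genes. The fatty acid synthesis list has medians of -0.75 and 0.97, beside -0.95 and 0.94 for the cholesterol enzymes, and Stard3, at 1.55 and -1.56, stands apart from the other genes of sterol handling.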

How the data were processed

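Total RNA (6 ug) was labelled and hybridised to 9 Affymetrix arrays, per the labels' protocols. The deposited values are linear probe set intensities (signals) that the authors made with MAS5, per the submitters' processing notes. The MAS5 version is not given in the sources used here, nor is a genome build. Of 45101 probe sets, 64 were controls, 34945 carried 1 gene symbol, 932 several and 9160 none in the platform annotation, and only those with 1 symbol were named.

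An offset of 16 was added before log2. Probe sets with a mean over all 9 arrays above the 40th percentile (5.67) were kept, 27022 in all, and each gene was represented by the probe set with the highest mean, which left 12586 genes. The 3 groups were fitted together with limma 3.58.1 in R 4.3.3 (lmFit, and eBayes with an intensity trend), 2-sided, with Benjamini-Hochberg adjustment over all genes and calls at 0.05. A fold is the antilog of a difference of log2(signal + 16) and understates the change of low genes. With 3 arrays a group, their number limits the precision. Tested on data simulated for tumor DNA against media (12586 genes), the fit recovered 42% of 100 genes changed by 1 log2 unit and 84% of 100 changed by 2, with 4 false calls. The simulated noise was independent between arrays, without an effect of the array number. No other genes were changed, whereas 33.6% of genes were called in the data, so these shares need not hold for the data.

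The titles number the arrays of a group, the first carrying no numeral. Deviations from group means correlated by 0.17 to 0.49 between arrays of the same number and by -0.42 to 0.14 otherwise. The numbers were therefore taken to pair the arrays. Where the block changed a call among the followed genes of cholesterol metabolism, the blocked adjusted p is given. For the neighbouring lists only counts of calls with the block are given. Unless stated, standard errors, p-values and intervals are those of the fit without the block. With the block the standard error was, for example, 0.17 for Hmgcs1 and 0.40 for Ch25h.

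The genes and all lists were chosen with earlier results of these data known. Values in each array are given for every gene outside the synthesis enzymes, for the 3 called genes with the smallest adjusted p in each group of enzymes and the 5 in the knockout comparison, and, chosen after their values were seen, for Dhcr7 and Fdps. Of each neighbouring list, up to 3 called genes with the smallest adjusted p with DNA are named. Alternatives were offsets of 64 and 0, no filter, quantile normalization, median centring, no variance trend, the mean over probe sets, the block, and leaving out each array and each number. For the neighbouring lists they were added after seeing the data. Promoter windows came from RefSeq.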

Additional observations from a re-analysis of the deposited data

How the results depend on the processing

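No difference of the 30 genes that was called changed direction under any of the 20 alternatives, while counts of calls did change. With WT tumor DNA against WT media, the genes called lower were 13 in the fit as reported, 7 under quantile normalization, 7 under median centring, 20 with the replicate block and 6 to 17 with arrays left out, and those called higher were 3, 5 with the block and 1 to 3 with arrays left out. With the knockout against wild type under DNA, the genes called higher were 12, 6 under median centring and 6 to 12 with arrays left out, and those called lower were 3, and 1 to 3 with arrays left out. Of the 6 neighbouring lists, 14 genes were called lower with DNA (8 under median centring, 8 to 15 with arrays left out) and 3 higher (6 under median centring, 5 with the block, 1 to 3 with arrays left out). In the knockout 13 were called higher (7 under median centring, 7 to 15 with arrays left out) and 2 lower (5 under median centring, 5 with the block, 1 to 3 with arrays left out). Between STING tumor DNA and WT media, 0 of the 30 were called under any alternative. Over all genes, calls with DNA were 1251 higher and 2973 lower, and 2038 and 1451 under median centring. Further single calls were lost without the filter (Mvk in both comparisons, Fdft1 in the knockout), without the variance trend (Fdft1 in both, Npc1 and Npc2 with DNA, Ebp in the knockout) and with the mean over probe sets (Hsd17b7 with DNA, Abcg1 in both). The cause of these shifts was not tested. Where a lone number was left out, fewer arrays remained. Each alternative named could be run. Signals near the floor, such as those of Flt3, cannot be told from background.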
